A study of Homo sapiens with 12 samples.

Results

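The 9 genes described here encode the machinery that presents peptides on MHC class I molecules. They are the heavy chains HLA-B and HLA-C, the light chain B2M, the transporter subunits TAP1 and TAP2, the loading chaperone TAPBP (tapasin), the immunoproteasome subunits PSMB8 and PSMB9, and NLRC5, a transactivator of class I promoters. They were taken by symbol from a count table of 17085 genes, and all 9 were among the 12841 genes that passed the filter on low counts and were tested. RNA was sequenced from 786-O, an established human renal cancer cell line labelled WT, in 12 libraries that fall into 4 groups of 3. The groups were treated for 24 h with DMSO (the vehicle), everolimus, SGI-1027 or the combination. Everolimus is an inhibitor of mTOR complex 1, and SGI-1027 is a quinoline-based inhibitor of DNA methyltransferases. SGI-1027 was given at 1.5 µM both alone and in the combination, and everolimus at 5 µM in the combination. For everolimus alone the treatment label gives 5 µM, whereas the treatment protocol and the design text give 10 µM, and the methods of the study give the same dose as the treatment label. Comparisons that use this group carry that disagreement between sources. All libraries come from 1 cell line, and nothing in the labels says that the 3 libraries of a group were separate cultures, so the p-values measure the spread between these libraries, which may be technical.

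Class I molecules display peptides from intracellular proteins to CD8 T cells and to natural killer cells. Proteasomes cut the proteins, and immunoproteasomes carry PSMB8 and PSMB9 in the catalytic positions that PSMB5 and PSMB6 hold in the constitutive form. The TAP1 and TAP2 heterodimer moves the peptides into the endoplasmic reticulum, where tapasin bridges it to heavy chains paired with B2M. Interferons induce the whole set, through interferon regulatory factors, STAT factors and NLRC5, and reduced class I expression is a known route by which tumours avoid T cells.

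The libraries held 37046231 to 41516976 counts each, of which the 9 genes took 0.287% to 0.505%. Per-gene counts of the 9 ranged from 622 to 76628, so counting error was small for each. SGI-1027 replicate 3 stood apart from the other libraries of its group, with a chi-square per gene of 16.4 and 16.1 against replicates 1 and 2. DMSO replicate 1 stood apart too, at 10.2 and 13.0, while the remaining pairs of replicates lay between 3.04 and 5.48. The labelled cell type was checked against markers. A list of 8 renal epithelial and carcinoma genes summed to 8653 to 10512 CPM (counts scaled by library size) over all libraries, although CA9, a hypoxia target, was near 0 at 2 to 32 counts. VIM made up most of that sum, with group means from 5954 CPM in DMSO to 7293 in the combination. Group means of PAX8 ran from 325 CPM with everolimus to 418 with SGI-1027, so the sum says little about renal identity. A list of 7 leukocyte genes summed to 0.576 to 0.874 CPM in DMSO, 0.811 to 1.10 with everolimus, 1.49 to 1.64 with SGI-1027 and 1.75 to 2.79 in the combination. Most of that increase was ITGAX, an integrin chain, at 11 to 20 counts per library in DMSO and 63 to 103 in the combination, while PTPRC and CD3E had at most 1 count in any library. A list of 3 endothelial genes summed to at most 0.403 CPM. Whether these small changes had a part in the class I values was not tested. In bulk RNA, fewer cells of a kind and less RNA per cell cannot be told apart.

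The sequences below are the 150 bases that precede the annotated start of 6 of the 9 genes. They are shown because these 6 include the 4 genes that rose with everolimus (HLA-B, HLA-C, B2M and TAPBP) and the transporter pair, of which TAP2 fell and TAP1 did not pass the test, and because class I promoters are known for a small set of shared elements. Sequences are from RefSeq, build GRCh38.p14, written 5′ to 3′ on the strand of the gene. Capitals mark every match, on either strand, to GAAANNGAAA (the core of the interferon-stimulated response element), GGGNNTTTCC (a site for NF-kB), CCAAT (the box bound by NF-Y) or TGACG (the core of a cAMP response element); a match on the other strand reads as the reverse complement, such as ATTGG for CCAAT. Repeated interferon-stimulated matches share bases with each other and are written as 1 run of capitals.
HLA-B, chr6:31357180-31357329, minus strand: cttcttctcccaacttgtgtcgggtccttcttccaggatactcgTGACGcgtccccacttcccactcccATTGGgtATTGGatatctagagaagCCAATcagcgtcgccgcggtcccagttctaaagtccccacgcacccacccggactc
HLA-C, chr6:31272093-31272242, minus strand: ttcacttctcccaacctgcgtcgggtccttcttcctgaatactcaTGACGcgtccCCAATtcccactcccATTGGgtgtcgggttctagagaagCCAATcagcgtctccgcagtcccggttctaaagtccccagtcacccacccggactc
B2M, chr15:44711367-44711516, plus strand: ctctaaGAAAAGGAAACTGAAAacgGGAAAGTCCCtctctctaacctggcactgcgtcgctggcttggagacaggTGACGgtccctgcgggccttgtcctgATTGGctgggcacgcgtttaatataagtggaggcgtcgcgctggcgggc
TAP1, chr6:32853705-32853854, minus strand: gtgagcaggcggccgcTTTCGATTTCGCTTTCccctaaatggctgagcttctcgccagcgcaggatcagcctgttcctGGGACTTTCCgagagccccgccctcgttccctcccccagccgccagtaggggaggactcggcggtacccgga
TAP2, chr6:32838740-32838889, minus strand: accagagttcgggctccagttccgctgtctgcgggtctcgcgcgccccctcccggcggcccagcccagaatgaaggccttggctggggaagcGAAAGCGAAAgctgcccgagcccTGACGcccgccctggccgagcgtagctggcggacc
TAPBP, chr6:33314079-33314228, minus strand: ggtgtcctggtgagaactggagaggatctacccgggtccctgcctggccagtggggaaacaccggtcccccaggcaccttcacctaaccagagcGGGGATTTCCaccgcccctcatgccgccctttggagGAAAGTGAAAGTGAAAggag

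Of the 9 genes, 8 had an entry. For TAP1 and PSMB8, which have 2 annotated starts, the outermost was used. The interferon-stimulated core was present in 4 of the 8 windows (B2M, TAP1, TAP2 and TAPBP), against 1.74% of the 35116 promoter windows of the same length. The NF-kB letters were present in 3 of the 8 (B2M, TAP1 and TAPBP), against 1.11% of all windows. CCAAT was found in HLA-B, HLA-C and B2M, where 23.5% of all windows hold it, and TGACG in HLA-B, HLA-C, B2M, TAP2, PSMB8 and PSMB9, where 15.4% do. TTCNNNGAA, the gamma-activated site, was in none of these 8 and in 3.66% of all windows, although the window of the second annotated PSMB8 start held 1 match. Thus the windows of HLA-B and HLA-C held only CCAAT and TGACG matches, while those of TAP1 and TAPBP held only the interferon-stimulated and NF-kB letters. These matches are a description of letters in 1 window. Bases farther upstream than 150 and spellings that differ from these letters were not searched. An absent match therefore does not mean that a gene lacks the element. TAP1 and PSMB9 lie head to head, with 487 bases between their starts. The 8 windows held 5 to 18 CpG dinucleotides, against a median of 7 over all windows.

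The 9 genes covered a wide range of levels. In FPKM, fragments scaled by gene length and library size, the unit in which genes can be compared with each other, B2M ranked 38 among all genes of the table by its mean level in DMSO, HLA-C 116 and HLA-B 132. TAPBP ranked 653, PSMB8 1095, PSMB9 1463, TAP1 1742, TAP2 2829 and NLRC5 8518. That order of the 9 mean FPKM levels was the same in each of the 4 groups. Within a group the libraries of neighbouring genes did not overlap in FPKM, except PSMB9 and TAP1 with SGI-1027, where PSMB9 had 53.5 to 58.9 and TAP1 50.6 to 53.9. In the combination B2M ranked 15, HLA-C 69, HLA-B 72 and PSMB9 756.

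HLA-B and HLA-C encode classical heavy chains, the polymorphic part that holds the peptide. HLA-B was at 336, 344 and 346 FPKM in the 3 DMSO libraries, 464, 458 and 469 with everolimus, 522, 541 and 532 with SGI-1027 and 636, 646 and 632 in the combination. HLA-C was at 402, 394 and 398 FPKM in DMSO, 539.9, 516 and 537 with everolimus, 553, 584 and 581 with SGI-1027 and 660.4, 659 and 656 in the combination. For both genes every treated library lay above every DMSO library, and the 4 groups stood in the order DMSO, everolimus, SGI-1027, combination without overlap. The log2 fold change of HLA-B against DMSO was 0.43 ± 0.03 (SE, as throughout) with everolimus (adjusted p = 4.45e-09, quasi-likelihood test of edgeR, adjusted by Benjamini-Hochberg over 12841 genes, as throughout), 0.64 ± 0.03 with SGI-1027 (adjusted p = 1.67e-11) and 0.88 ± 0.03 in the combination (adjusted p = 1.19e-13). The last is a 1.84-fold increase. For HLA-C the log2 fold changes were 0.41 ± 0.03 (edgeR adjusted p = 1.64e-08), 0.53 ± 0.03 (adjusted p = 3.64e-10) and 0.71 ± 0.03 (adjusted p = 4.28e-12), the last a 1.63-fold increase.

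B2M encodes beta-2-microglobulin, the invariant light chain that heavy chains need to fold and reach the cell surface. It was at 1031, 1040.3 and 1069 FPKM in the DMSO libraries, 1402, 1366 and 1335 with everolimus, 1607, 1619 and 1669.8 with SGI-1027 and 1946, 2008 and 1947 in the combination. Its groups followed the order of the heavy chains, again without overlap. The log2 fold change of B2M against DMSO was 0.38 ± 0.03 with everolimus (edgeR adjusted p = 3.7e-08), 0.64 ± 0.03 with SGI-1027 (adjusted p = 2.37e-11) and 0.89 ± 0.03 in the combination (adjusted p = 1.72e-13), a 1.85-fold increase.

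TAP1 and TAP2 form the peptide transporter, and they differed from each other. TAP1 was at 34.7, 37.4 and 36.9 FPKM in DMSO, 34.4, 35.5 and 37.6 with everolimus, 50.6, 53.9 and 52.2 with SGI-1027 and 60.3, 62.9 and 66.3 in the combination. TAP2 was at 21.2, 20.8 and 20.4 FPKM in DMSO, 16.4, 16.9 and 16.2 with everolimus, 19.3, 20.1 and 21.0 with SGI-1027 and 23.5, 23.8 and 25.4 in the combination. The everolimus libraries of TAP1 overlapped those of DMSO, while all 3 everolimus libraries of TAP2 lay below DMSO. TAP1 had a log2 fold change of -0.03 ± 0.05 with everolimus (edgeR adjusted p = 0.673), rose by 0.52 ± 0.05 with SGI-1027 (adjusted p = 3.57e-08) and rose by 0.78 ± 0.05 in the combination (adjusted p = 1.22e-10). TAP2 had a log2 fold change of -0.34 ± 0.04 with everolimus, a fall (edgeR adjusted p = 2.76e-06), of -0.05 ± 0.04 with SGI-1027, where its libraries overlapped those of DMSO (adjusted p = 0.351), and of 0.20 ± 0.04 in the combination, a rise (adjusted p = 0.000446).

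TAPBP, which holds empty heavy chains at the transporter, rose in all 3 comparisons with DMSO, as the heavy chains and B2M did. It was at 93.8, 89.2 and 87.5 FPKM in DMSO, 118, 122 and 122 with everolimus, 125, 131 and 159.6 with SGI-1027 and 143, 141 and 148 in the combination. One library, SGI-1027 replicate 3, was higher than all 3 of the combination, and it is the library that stood apart from the rest. Against DMSO the log2 fold change of TAPBP was 0.41 ± 0.06 with everolimus (edgeR adjusted p = 2.75e-05), 0.62 ± 0.06 with SGI-1027 (adjusted p = 1.7e-07) and 0.66 ± 0.06 in the combination (adjusted p = 6e-08). Without SGI-1027 replicate 3 the SGI-1027 value was 0.50 (adjusted p = 9.29e-11).

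PSMB8 and PSMB9 replace constitutive catalytic subunits when immunoproteasomes assemble. PSMB8 was at 56.1, 58.9 and 58.1 FPKM in DMSO, 57.1, 57.1 and 58.5 with everolimus, 68.0, 70.9 and 62.2 with SGI-1027 and 78.0, 77.9 and 81.3 in the combination. PSMB9 was at 42.2, 43.1 and 44.0 FPKM in DMSO, 46.8, 44.3 and 48.2 with everolimus, 56.8, 58.9 and 53.5 with SGI-1027 and 74.1, 75.6 and 76.2 in the combination. The everolimus libraries overlapped DMSO for PSMB8 and, on the CPM scale of the test, for PSMB9, while both genes separated fully from DMSO with SGI-1027 and in the combination. The log2 fold change of PSMB8 was -0.01 ± 0.05 with everolimus (edgeR adjusted p = 0.884), 0.22 ± 0.05 with SGI-1027 (adjusted p = 0.000591) and 0.43 ± 0.05 in the combination (adjusted p = 1.83e-07). That of PSMB9 was 0.10 ± 0.05 (edgeR adjusted p = 0.0893), 0.39 ± 0.05 (adjusted p = 1.98e-06) and 0.79 ± 0.05 (adjusted p = 1.22e-10). The everolimus value of PSMB9 passed the threshold without everolimus replicate 2 (0.14, adjusted p = 0.0398).

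NLRC5 was the lowest of the 9 in FPKM. It was at 2.87, 2.47 and 2.70 FPKM in DMSO, 2.22, 2.33 and 2.02 with everolimus, 3.94, 3.93 and 4.24 with SGI-1027 and 4.20, 4.64 and 4.97 in the combination. All 3 everolimus libraries lay below DMSO and all SGI-1027 and combination libraries above it. The log2 fold change of NLRC5 was -0.29 ± 0.08 with everolimus, a fall (edgeR adjusted p = 0.00325), 0.59 ± 0.07 with SGI-1027 (adjusted p = 1.47e-06) and 0.76 ± 0.07 in the combination (adjusted p = 4.38e-08).

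**Figure D1:**
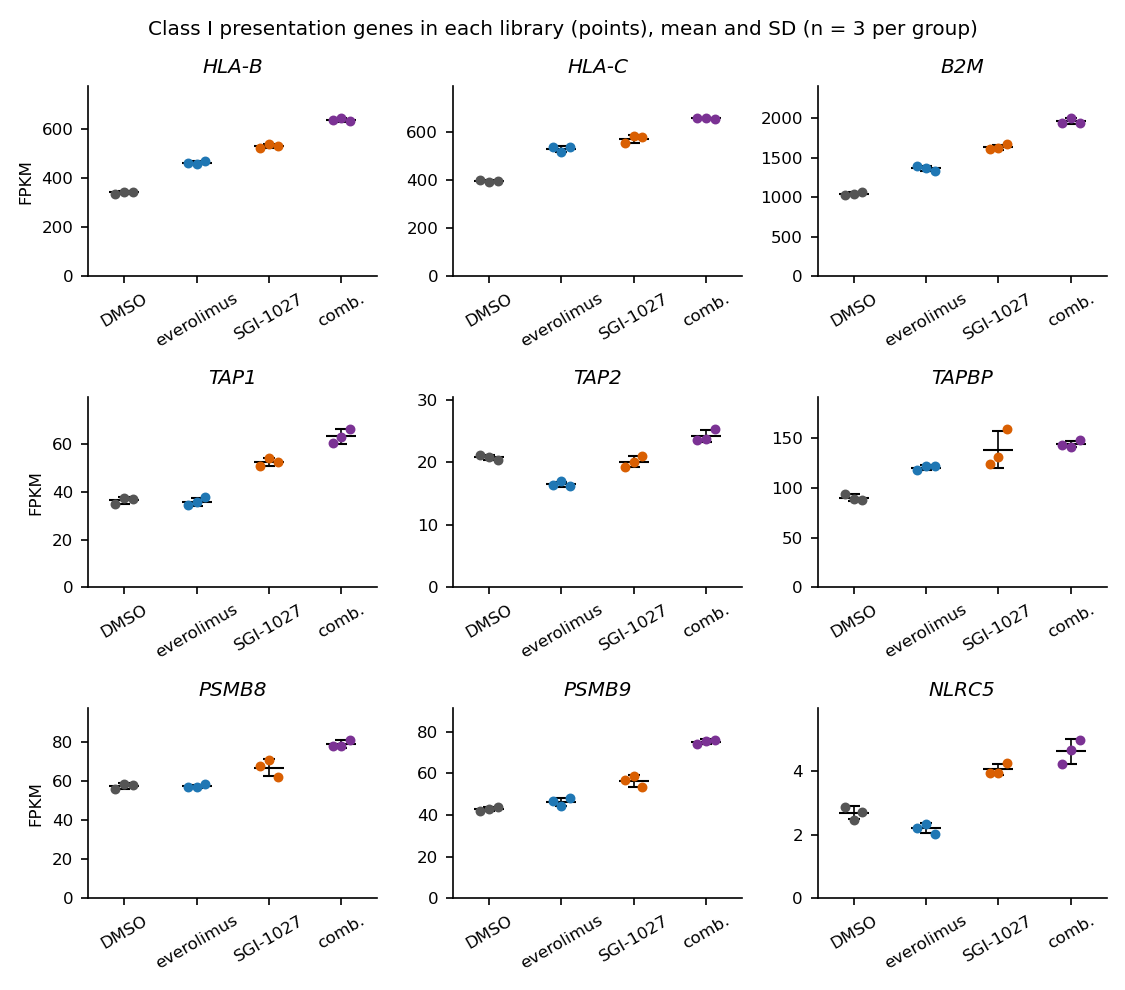
FPKM (linear axis from 0) of each of the 9 genes in DMSO, everolimus, SGI-1027 and combination libraries; points are the 3 libraries, the horizontal mark is the mean and the bar the SD. The combination libraries lie above the DMSO libraries in all 9 panels, while everolimus lies below DMSO for TAP2 and NLRC5.

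Counted over the 9 genes, the comparisons with DMSO read as follows. With everolimus 4 rose (HLA-B, HLA-C, B2M and TAPBP), 2 fell (TAP2 and NLRC5) and 3 did not pass the test (TAP1, PSMB8 and PSMB9), where 27.2% of all tested genes rose and 29.2% fell. With SGI-1027 8 rose and none fell, TAP2 being the exception, where 32.0% of tested genes rose and 30.6% fell. In the combination 9 of 9 rose, where 32.8% of tested genes rose and 33.4% fell. The median log2 fold change of the 9 was 0.10 with everolimus, 0.53 with SGI-1027 and 0.76 in the combination, beside medians over all tested genes of 0.0013, 0.017 and 0.0074. None of the 9 reached the cut-off in the methods of the study for upregulated genes, an unadjusted p under 0.05 with a log2 fold change of at least 1, in any of the 3 comparisons with DMSO. That cut-off was passed upwards by 3.89% of tested genes with everolimus, 6.25% with SGI-1027 and 7.25% in the combination. The 3 comparisons share the DMSO libraries, so their values are not independent of each other.

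**Figure D2:**
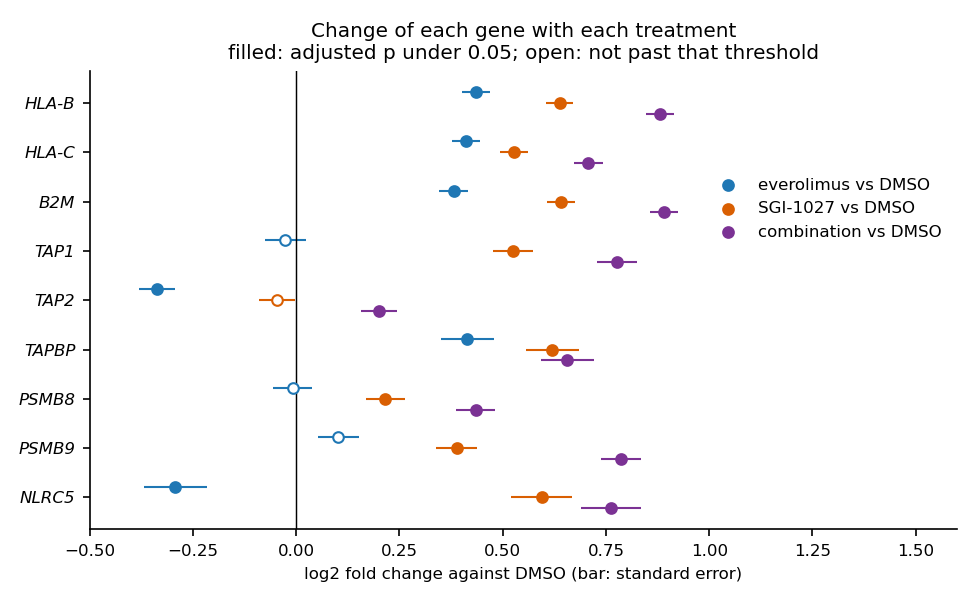
Log2 fold change against DMSO (x axis) of each of the 9 genes for everolimus, SGI-1027 and the combination, with bars for the SE; filled points have an adjusted p under 0.05. All 9 combination points are filled and lie between 0.20 (TAP2) and 0.89 (B2M), and the everolimus points run from -0.34 (TAP2) to 0.43 (HLA-B).

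The treated groups were also compared directly. The combination exceeded everolimus for 9 of 9 genes, where 20.1% of tested genes were higher and 19.2% lower. NLRC5 had the largest of these 9 differences, a log2 fold change of 1.06 ± 0.07 (edgeR adjusted p = 2.24e-09), followed by TAP1 at 0.80 ± 0.05 (adjusted p = 2.53e-10) and PSMB9 at 0.68 ± 0.05 (adjusted p = 2.62e-09). The smallest was TAPBP at 0.24 ± 0.06 (edgeR adjusted p = 0.00566). The other 5 lay between 0.30 for HLA-C and 0.54 for TAP2.

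The combination exceeded SGI-1027 for 7 of 9 genes and was lower for none, where 9.40% of tested genes were higher and 10.2% lower. PSMB9 had the largest log2 fold change of the 7, 0.40 ± 0.05 (edgeR adjusted p = 9.3e-06), and the other 6 lay between 0.18 for HLA-C and 0.25 for TAP1. NLRC5 had a log2 fold change of 0.17 ± 0.07 (edgeR adjusted p = 0.111), with overlapping libraries, and passed the threshold without combination replicate 1 (0.23, adjusted p = 0.0422). TAPBP had a value of 0.04 ± 0.06 (edgeR adjusted p = 0.753), which became 0.16 (adjusted p = 0.00467) without SGI-1027 replicate 3 and -0.04 (adjusted p = 0.740) without SGI-1027 replicate 1. SGI-1027 at 1.5 µM exceeded everolimus for 9 of 9 genes, where 13.0% of tested genes were higher and 9.51% lower, with log2 fold changes from 0.12 ± 0.03 for HLA-C (edgeR adjusted p = 0.0211) to 0.89 ± 0.07 for NLRC5 (adjusted p = 8.75e-08). Of these, the call for HLA-C was lost without everolimus replicate 2, SGI-1027 replicate 2 or SGI-1027 replicate 3 (adjusted p = 0.116, 0.0765 and 0.0525). The call for TAPBP, 0.21 ± 0.06, was lost when any of the 3 everolimus libraries was left out (adjusted p = 0.0626 to 0.0981), and without SGI-1027 replicate 3 its value fell to 0.09 (adjusted p = 0.124).

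Whether everolimus acted on these genes to the same extent without and with SGI-1027 was tested as an interaction, the difference between the log2 fold change of the combination against SGI-1027 and that of everolimus against DMSO. It assumes the same everolimus dose on both sides, on which the label and the protocol text disagree (5 µM and 10 µM). The interaction passed the threshold for all 9 genes, where 23.6% of tested genes had a positive and 22.1% a negative one. It was negative for 4 of the genes and positive for 5. The 4 negative values were those of HLA-B (-0.19 ± 0.05, edgeR adjusted p = 0.00262), HLA-C (-0.23 ± 0.05, 0.000843), B2M (-0.13 ± 0.05, 0.0325) and TAPBP (-0.38 ± 0.09, 0.00248). For these 4 everolimus gave a smaller log2 fold change with SGI-1027 than without it. Without SGI-1027 replicate 3 the TAPBP interaction was -0.26 ± 0.05 (edgeR adjusted p = 0.000247). The 5 positive values were those of TAP1 (0.28 ± 0.07, edgeR adjusted p = 0.00279), TAP2 (0.59 ± 0.06, 4.92e-07), PSMB8 (0.23 ± 0.07, 0.00891), PSMB9 (0.29 ± 0.07, 0.00202) and NLRC5 (0.46 ± 0.10, 0.00152). TAP2 had the largest interaction of the 9, and everolimus lowered it without SGI-1027 (-0.34) and raised it with SGI-1027 (0.25 ± 0.04, edgeR adjusted p = 0.000377). The B2M interaction was lost on leaving out any 1 of 6 libraries, namely DMSO replicates 1 and 2, everolimus replicate 1, SGI-1027 replicate 3 and combination replicates 1 and 3 (adjusted p = 0.0569 to 0.0981), and it did not pass with no filter on low counts (0.0856) or with limma-trend on FPKM (0.0874 and 0.0912). The PSMB8 interaction did not pass with upper-quartile factors (0.15, adjusted p = 0.0709).

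**Figure D3:**
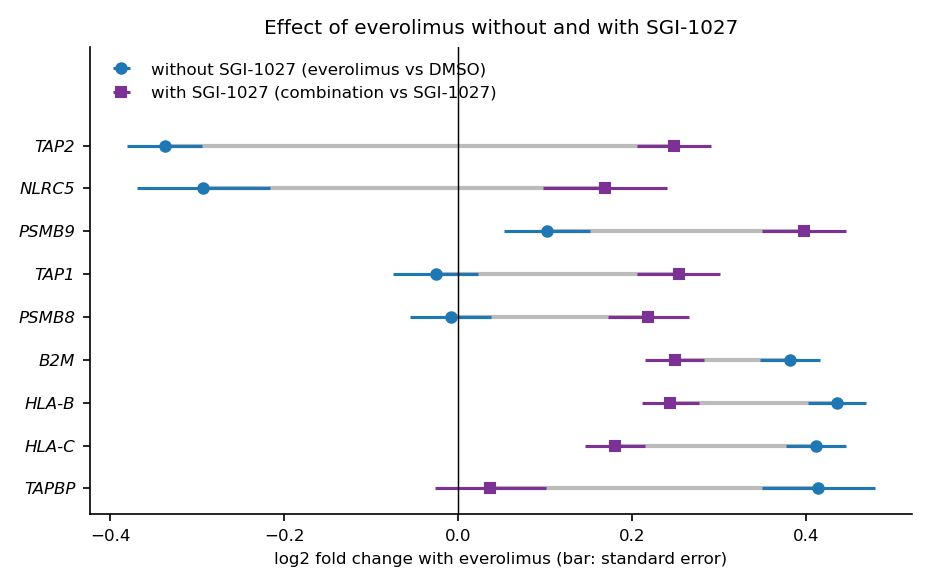
Log2 fold change with everolimus (x axis) for each gene without SGI-1027 (circles, everolimus against DMSO) and with SGI-1027 (squares, combination against SGI-1027), bars for the SE, genes ordered by the difference. The square lies to the right of the circle for TAP2, NLRC5, PSMB9, TAP1 and PSMB8 and to the left for B2M, HLA-B, HLA-C and TAPBP.

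The balance between immunoproteasome and constitutive subunits was followed as a ratio of FPKM values within each library. The ratio of PSMB8 to PSMB5, which hold the chymotrypsin-like position, was 0.379 ± 0.018 in DMSO, 0.482 ± 0.0078 with everolimus, 0.674 ± 0.040 with SGI-1027 and 0.799 ± 0.0068 in the combination (mean ± SD, n = 3). The ratio of PSMB9 to PSMB6, which hold the caspase-like position, was 0.238 ± 0.0092, 0.314 ± 0.019, 0.468 ± 0.025 and 0.636 ± 0.020 in the same order. The ratio of PSMB10 to PSMB7, the trypsin-like position, was 0.184 ± 0.0076, 0.273 ± 0.020, 0.279 ± 0.013 and 0.297 ± 0.0038. In each of these 9 comparisons every treated library had a higher ratio than every DMSO library. The fold of the ratio in the combination against DMSO was 2.11 for PSMB8 to PSMB5, 2.68 for PSMB9 to PSMB6 and 1.62 for PSMB10 to PSMB7. The two-sided exact permutation test gave p = 0.1 in each of the 9 comparisons, which is the smallest p that 3 against 3 libraries allow, and 0.1 after adjustment over the 9.

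PSMB5 and PSMB6, the denominators of the first and second ratio, fell in all 3 comparisons with DMSO. PSMB5 had a log2 fold change of -0.36 ± 0.06 with everolimus, -0.61 ± 0.06 with SGI-1027 and -0.65 ± 0.06 in the combination (edgeR adjusted p = 0.000121, 1.98e-07 and 7.68e-08). PSMB6 had -0.30 ± 0.05, -0.59 ± 0.06 and -0.64 ± 0.06 on the log2 scale (edgeR adjusted p = 0.000154, 4.75e-08 and 1.22e-08). With everolimus, then, PSMB5 and PSMB6 fell while PSMB8 and PSMB9 did not pass the test. PSMB10, the numerator of the third ratio, rose with everolimus (0.37 ± 0.08, edgeR adjusted p = 0.000736). PSMB7 fell with everolimus (-0.20 ± 0.06) and SGI-1027 (-0.32 ± 0.06) and had -0.11 ± 0.06 in the combination (edgeR adjusted p = 0.108).

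Other FPKM ratios within the set, chosen after their values were seen and given with no test, described unequal change between partners. The ratio of TAP1 to TAP2 was 1.75 ± 0.092 in DMSO, 2.17 ± 0.14 with everolimus, 2.60 ± 0.10 with SGI-1027 and 2.61 ± 0.040 in the combination. The ratio of HLA-B to HLA-C was 0.859 ± 0.020, 0.874 ± 0.014, 0.928 ± 0.014 and 0.969 ± 0.0098. PSMB8 to PSMB9 was 1.34 ± 0.024, 1.24 ± 0.042, 1.19 ± 0.023 and 1.05 ± 0.019, so the pair approached equal FPKM in the combination.

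**Figure D4:**
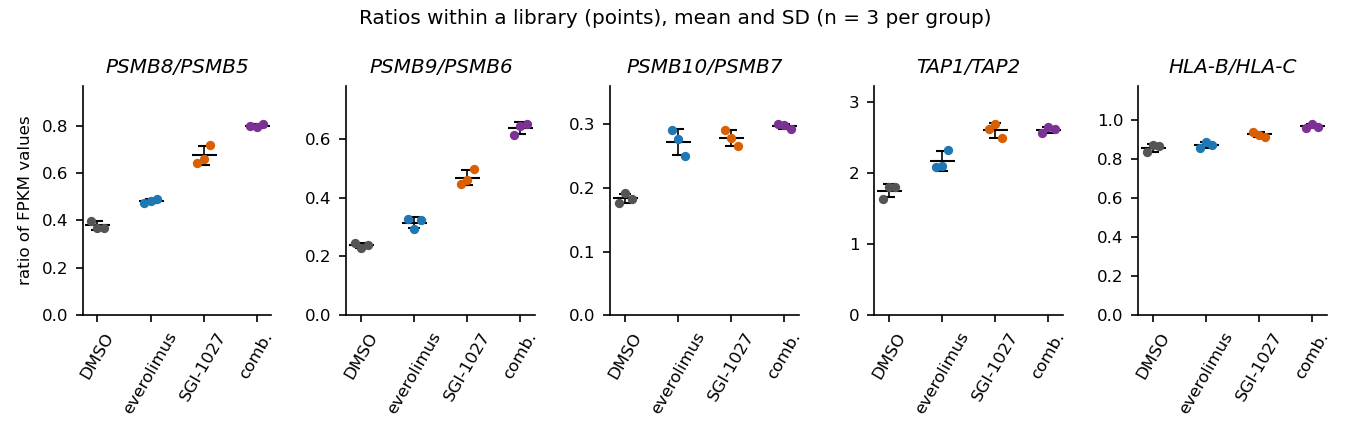
Ratio of FPKM values within each library (linear axis from 0) for 5 gene pairs in the 4 groups; points are libraries, the horizontal mark is the mean and the bar the SD (n = 3). The PSMB8 to PSMB5 ratio goes from 0.379 in DMSO to 0.799 in the combination and the PSMB9 to PSMB6 ratio from 0.238 to 0.636.

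The rest of the pathway was counted by list, to be read beside the shares of all tested genes given above. Among heavy chains outside the classical set, 8 of 9 listed genes were tested; 4 rose and 2 fell with everolimus, 4 rose and 2 fell with SGI-1027, and 4 rose and 1 fell in the combination. The median log2 fold changes of these 8 were 0.14, 0.28 and 0.42. HLA-F, a heavy chain seen by natural killer cell receptors, rose by 1.65 ± 0.08 in the combination (edgeR adjusted p = 2.7e-12), more than any of the 9 main genes, and HLA-E, the ligand of NKG2A, by 0.75 ± 0.04 (adjusted p = 1.04e-11). MR1, which presents vitamin B metabolites, rose by 0.93 ± 0.08 (edgeR adjusted p = 9.43e-09) and FCGRT, the neonatal Fc receptor heavy chain, by 1.49 ± 0.23 (adjusted p = 1.39e-05). CD1D, a lipid-presenting molecule and the 1 gene that fell, had -0.87 ± 0.31 (edgeR adjusted p = 0.0210). Single drugs changed these genes too. With everolimus alone and SGI-1027 alone, HLA-F had log2 fold changes of 0.28 and 1.09, and HLA-E 0.36 and 0.57. In the same order, MR1 had 0.28 and 0.94, and FCGRT 1.31 and 1.46. CD1D had -0.21 with everolimus (edgeR adjusted p = 0.564) and -0.87 with SGI-1027. HLA-G was not tested, and its combination libraries had 3, 2 and 65 counts, against at most 4 in any other library.

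Loading and trimming factors did not move as 1 block. Of 9, 5 rose and 3 fell in each of the 3 comparisons with DMSO, with median log2 fold changes of 0.21 with everolimus, 0.19 with SGI-1027 and 0.14 in the combination. TAPBPL, a tapasin homologue that edits peptides, rose by 0.94 ± 0.06 in the combination (edgeR adjusted p = 2.34e-10). The trimming peptidases ERAP1 (0.62 ± 0.05, edgeR adjusted p = 2.92e-09) and ERAP2 (0.47 ± 0.04, 6.85e-09) rose as well, while HSPA5, the chaperone BiP, fell (-0.67 ± 0.03, 8.63e-12). These changes were not confined to the combination. With everolimus alone and SGI-1027 alone, TAPBPL had log2 fold changes of 0.79 and 0.86, and ERAP1 0.55 and 0.53. In the same order, ERAP2 had 0.34 and 0.41, and HSPA5 -0.72 and -0.57.

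The proteasome lists held mostly genes that fell. Of 5 genes of the immunoproteasome and its regulators, 2 rose and 3 fell with everolimus, and 2 rose and 2 fell with SGI-1027 and in the combination. The median log2 fold changes of these 5 were -0.15, -0.08 and 0.07. PSMB10, the third immunoproteasome subunit, rose by 0.58 ± 0.08 in the combination (edgeR adjusted p = 4.12e-06) and PSME1, a subunit of the PA28 activator, by 0.52 ± 0.06 (adjusted p = 2.6e-07). PSME3, the nuclear PA28 subunit, and POMP, the assembly factor, fell (-0.51 ± 0.04 and -0.18 ± 0.06, edgeR adjusted p = 1.83e-09 and 0.0110). PSME2, on the same list, had 0.07 ± 0.06 in the combination (edgeR adjusted p = 0.354) and fell with everolimus (-0.15 ± 0.06, 0.0449). With everolimus alone and SGI-1027 alone, PSMB10 had log2 fold changes of 0.37 and 0.28, and PSME1 0.35 and 0.42. Of the 3 constitutive counterparts described above, 3 fell with everolimus, 3 with SGI-1027 and 2 in the combination, with medians of -0.30, -0.59 and -0.64. Of 11 other core subunits none rose, and 9 fell with everolimus, 11 with SGI-1027 and 11 in the combination, with medians of -0.18, -0.36 and -0.33. PSMB2 fell the most of those named, at -0.68 ± 0.03 in the combination (edgeR adjusted p = 4.09e-12), with PSMA3 at -0.45 ± 0.04, PSMA6 at -0.30 ± 0.05 and PSMB4 at -0.28 ± 0.04. Of 7 cytosolic peptidases, 6 fell with everolimus, 5 with SGI-1027 and 5 in the combination, with medians of -0.26, -0.23 and -0.28. THOP1 (-0.75 ± 0.04), BLMH (-0.76 ± 0.05) and DPP3 (-0.36 ± 0.05) were among those that fell in the combination, and LAP3, an interferon-inducible aminopeptidase, was the exception, falling with everolimus (-0.65 ± 0.05) and rising in the combination (0.35 ± 0.05, edgeR adjusted p = 1.59e-06).

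Of 20 transcription factors of class I promoters, 6 rose and 4 fell with everolimus, 8 rose and 5 fell with SGI-1027, and 7 rose and 5 fell in the combination, with medians of 0.0089, 0.055 and 0.042. In the combination 32.8% of all tested genes rose and 33.4% fell. The factors named here take part in interferon signalling and were chosen for a small adjusted p in the combination. They do not stand for the list, and the 5 that fell are not among them. STAT2 had a log2 fold change of 0.90 ± 0.05 with everolimus, 2.05 ± 0.05 with SGI-1027 and 2.34 ± 0.05 in the combination (edgeR adjusted p = 2.22e-10, 5.79e-15 and 3.03e-16). IRF9, the DNA-binding partner of STAT2 in interferon signalling, had 0.28 ± 0.07, 1.26 ± 0.07 and 1.37 ± 0.07 (edgeR adjusted p = 0.00255, 3.43e-11 and 6.57e-12). IRF7 had 0.76 ± 0.22, 2.16 ± 0.20 and 2.64 ± 0.20 (edgeR adjusted p = 0.00716, 4.12e-08 and 1.6e-09), from 36 to 65 counts per library in DMSO.

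Of 8 listed cytokines known to induce this set, 7 were in the table and 3 were tested. IFNB1 had 0 to 4 counts per library and IFNL1 0 to 1, and IFNL2 and IFNL3 had 0 in all 12 libraries. TNF had 254 to 408 counts per library and fell in the combination (-0.30 ± 0.09, edgeR adjusted p = 0.00900), IL1B had -0.57 ± 0.31 there (adjusted p = 0.121), and IFNE rose with everolimus (1.48 ± 0.39, adjusted p = 0.00337) from 8 to 20 counts per DMSO library. IFNG was not analysed here.

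Of 7 ligands of natural killer cell receptors, none rose and 3 fell with everolimus, and 2 rose and 1 fell with SGI-1027 and in the combination, with medians of -0.33, -0.10 and 0.34. NCR3LG1, the ligand of NKp30, rose by 1.59 ± 0.14 in the combination (edgeR adjusted p = 1.11e-08) and ULBP1, a ligand of NKG2D, by 1.32 ± 0.17 (adjusted p = 1.83e-06), while ULBP3 fell (-0.54 ± 0.10, 9.87e-05). RAET1E had -0.43 ± 0.25 there (edgeR adjusted p = 0.134). MICA and MICB were counted above with the heavy chains and are not among these 7. Both fell with everolimus (-0.32 ± 0.05 and -0.65 ± 0.10, edgeR adjusted p = 1.14e-05 and 2.09e-05). In the combination against DMSO they did not pass the test (adjusted p = 0.111 and 0.868).

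**Figure D5:**
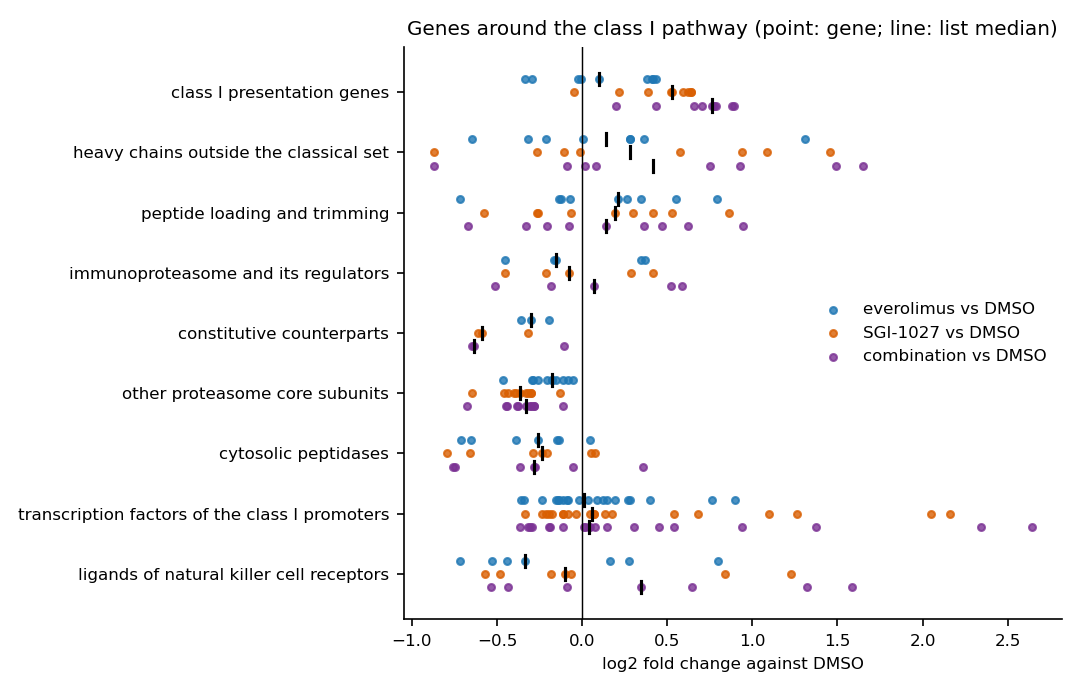
Log2 fold change against DMSO (x axis) of every tested gene in the class I set and 8 surrounding lists, 1 point per gene, for everolimus, SGI-1027 and the combination; black lines are list medians. The class I set lies to the right of 0 in the combination (median 0.76), while the 11 other core subunits lie to its left (median -0.33).

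Outside the set and the lists, the 5 genes whose profile over the 12 libraries was most like the mean standardized log2 CPM of the 9 were ITPR3 (Pearson's r = 0.995), IL4I1 (0.994), FLCN (0.993), WARS1 (0.993) and PLXNA2 (0.991). These values are a description, since the libraries share 4 treatments. Among the 9 themselves r ran from 0.646 for TAP2 to 0.977 for TAP1. Each of the 9 is part of that mean, which raises its own r. WARS1, the interferon-inducible tryptophanyl-tRNA synthetase, had a mean of 60.4 FPKM in DMSO and 169.8 in the combination. IL4I1, a secreted amino acid oxidase, went from a mean of 7.04 FPKM to 24.4, and ITPR3, a calcium channel of the endoplasmic reticulum, from 39.4 to 93.0.

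Several of the 9 genes share exonic sequence with neighbours or relatives, and how such reads were assigned is not given in the sources used here. Of the distinct 100-base windows in annotated transcripts (GENCODE v29, both strands), 22.2% of those of HLA-B also occurred in a transcript of another gene, AL671883.2, against 0.230% for HLA-C. The share was 31.9% for TAP2, which overlaps AL669918.1, 21.1% for PSMB8 and 12.3% for TAP1, which both overlap PSMB8-AS1, and 4.68% for PSMB9. For B2M, TAPBP and NLRC5 no such window was shared. Whether the counting used strand is not stated, and the strand of each overlap was not recorded here. Reads from the shared stretches therefore cannot be assigned with certainty, and values of TAP2, HLA-B, PSMB8 and TAP1 are uncertain to that extent. HLA genes are also polymorphic, and the alleles of the cell line were not examined.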

How the data were processed

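RNA sequencing of 12 libraries of 786-O cells was used, 3 in each of 4 groups. The values the authors deposited were raw counts for each gene symbol, as whole numbers, and FPKM values of the same genes and libraries, which scale counts by gene length and library size. The submitters' processing notes list the builds GRCm38 and mm10, which are mouse builds, although the samples and symbols are human. The aligner, counter, annotation and gene lengths are not given in the sources used here. The methods of the study name TRIzol extraction and a stranded mRNA kit, whereas the labels name another extraction and library kit. Groups came from the treatment labels. Replicate numbers did not pair the libraries (same-number correlations of deviations from -0.295 to 0.068 over 18 pairs). Over the 36 pairs with different numbers these correlations ran from -0.240 to 0.366. The highest was that of DMSO replicate 1 with SGI-1027 replicate 3, which both stood apart from their groups.

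Counts were fitted with edgeR 4.0.16 (TMM, filterByExpr, quasi-likelihood test, prior count 0.125, group as the only term, all 12 libraries), with Benjamini-Hochberg adjustment over 12841 genes and calls at an adjusted p under 0.05. The 7 contrasts reuse the same groups and are not independent of each other. Alternatives were upper-quartile factors, DESeq2 1.42.0, no filter, at least 10 counts in every library, a replicate block, only the groups compared, limma-trend 3.58.1 on log2(FPKM + 1) and log2(FPKM + 0.1), and leaving out each library. FPKM ratios were tested with exact permutation tests (scipy 1.17.1). The differences in log2 ratio, but not the tests, were recomputed with TMM-normalized CPM in place of FPKM. Gene length and library scale cancel in such a difference, so this recomputation could hardly change it. Scripts were tested on simulated counts. The members, pathway lists, marker lists and tests were chosen with earlier results of these data known. All 9 members were described, and at most 4 tested genes per list were named, those with the smallest adjusted p in the combination against DMSO. Other genes that went against most of their list were counted but not named. One gene that this rule names is not reported here. CD1D, PSME2, MICA and MICB were named outside that rule, after their values were seen. The 5 most similar genes were those with the highest Pearson correlation over the libraries, outside members, lists and HLA genes.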

Additional observations from a re-analysis of the deposited data

Results flagged for a closer look

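For all 9 genes the effect of everolimus differed between cells without and with SGI-1027, by the interaction term of the edgeR fit (log2 difference, combination against SGI-1027 minus everolimus against DMSO). For B2M this was lost without any 1 of 6 libraries, with no filter on low counts and with limma-trend, and for PSMB8 with upper-quartile factors (adjusted p = 0.0709). The values were -0.19 for HLA-B, -0.23 for HLA-C, -0.13 for B2M and -0.38 for TAPBP (-0.26 without SGI-1027 replicate 3). They were 0.28 for TAP1, 0.59 for TAP2, 0.23 for PSMB8, 0.29 for PSMB9 and 0.46 for NLRC5. TAP2 and NLRC5 are the 2 genes that everolimus lowered without SGI-1027, and in both the sign of the estimate was the opposite with SGI-1027 (0.25 and 0.17), although for NLRC5 the latter did not pass the test (adjusted p = 0.111). Whether a dose of 10 µM in place of 5 µM for everolimus alone had a part in these values was not tested.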

How the results depend on the processing

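Of 1251 recomputed values for 63 fold changes of the 9 genes, 1214 kept their direction and their side of the threshold, and the other 37 fell in 10 of the fold changes. The number of genes that rose stayed at 8 with SGI-1027 and 9 in the combination against DMSO under every alternative run, and was 4 or 5 with everolimus. With the replicate block these counts were 4, 8 and 9, and the block changed no call of the 9 genes. Estimates near 0 changed sign. Against DMSO, upper-quartile factors gave 0.048 for TAP1 with everolimus, 0.065 for PSMB8 with everolimus and 0.0075 for TAP2 with SGI-1027. For PSMB8 with everolimus, at least 10 counts in every library gave 0.00098 and only the groups compared gave 0.0027, and leaving out 1 library gave -0.0386 to 0.0078. For TAPBP in the combination against SGI-1027, leaving out 1 library gave -0.0375 to 0.16. PSMB9 with everolimus passed the threshold with upper-quartile factors (0.18, adjusted p = 0.00605) and with limma-trend (adjusted p = 0.0415 and 0.0413). The PSMB8 interaction did not pass with upper-quartile factors (0.15, adjusted p = 0.0709). The B2M interaction did not pass with no filter (adjusted p = 0.0856) or limma-trend (0.0874 and 0.0912), nor did TAPBP in SGI-1027 against everolimus with only the groups compared (0.0621) or limma-trend (0.0759 and 0.0720), nor HLA-C there with only the groups compared (0.0521). The cause was not tested in these cases. Upper-quartile factors moved the median of all tested genes by less than 0.1 on the log2 scale. Fitting only the groups compared gives no interaction. Depth limited HLA-G, IFNB1 and IFNL1, at few counts each.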
